A study of Mus musculus with 4 samples.

Results

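The comparison is of Suv4-20h knockout (KO) mouse embryonic fibroblasts with control fibroblasts, over the autosomes, chromosomes 1 to 19. Its members are the 200 kb windows of mouse build mm9 that held at least 5 usable probes: 11314 windows, or 2262.8 Mb, out of 12000 when chromosome X is counted as well. Replication timing in a window is the mean log2 ratio of the signal of DNA made in early S phase over that of DNA made in late S phase, so a higher value means earlier replication, and 0 is the autosomal probe median of each array. The control array carries the genotype label control, and the KO array is labelled as deleted for the floxed SUV4-20H1 allele. Both are given as the cell line MEF 362.2, while the growth protocol names MEF 364.2. The labels therefore do not settle which line was used, and the protocols describe deletion with 4-hydroxytamoxifen at 1 mM for 24 hours. Whole-genome amplification came before labelling. The labels do not say whether control cells carried the floxed allele or received the drug, nor do they give the state of SUV4-20H2. A non-induced and an induced suv4-20h mutant, on another slide, served here as arrays side by side. All cells took up the nucleotide analogue BrdU (50 µM) for 1 hour, and 80000 cells were sorted into early and late S phase fractions. The study compared wild-type with KO cells, and each group had 1 array, so no difference below was tested against a spread between cultures.

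Replication timing is the order in which stretches of the genome are copied during S phase. Early domains are mostly rich in active genes, late domains are mostly gene-poor and lie at the nuclear periphery, and the domains run from part of a megabase to many megabases. SUV4-20H1 and SUV4-20H2 are methyltransferases that carry lysine 20 of histone H4 from the monomethylated form, made by SETD8 (PR-Set7), to the di- and trimethylated forms. The trimethylated form is a mark of heterochromatin, and methylated lysine 20 is bound by the origin recognition protein ORC1. The probes carry positions and no gene names, and genes were not placed on mm9 here, so the results are given by region.

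The share of spots above background in both channels was close to even between the arrays. Each array held 165256 autosomal spots, and a window had a median of 15 probes. Both channels cleared the background of the scan in 94.1% of control and 93.1% of KO spots. Taken singly, the early channel cleared it in 98.5% of control and 95.3% of KO spots, and the late channel in 94.5% and 96.3%. Windows split into odd and even probes gave KO minus control differences that correlated with r = 0.87 over 8070 windows, a description of reproducibility within an array. Total signal (early plus late) differed between the arrays by chromosome, from a median KO minus control of -0.29 on chromosome 3 to 0.26 on chromosome 16. Of 122 chromosome Y probes, 106 cleared background in the KO hybridisation against 50 in the control one, and its part in the autosomal values was not tested. Standard errors (SE) below are over probes of a region within this pair of arrays, and neighbouring probes are not independent.

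The KO array had a wider range of timing than the control array. The distance between the 10th and the 90th percentile of autosomal windows was 1.82 on the control array and 2.32 on the KO array, 1.28 times as wide. The non-induced array, on the other slide, spanned 2.08, and against it the ratio was 1.12. With normexp background correction, the ratio of KO to control was 1.16. Relative to each array's autosomal probe median, the 10th percentile was -0.93 in control and -1.39 in KO cells, and the 90th was 0.89 and 0.93. Relative to the median window, the 10th percentile was -0.80 and -1.08 and the 90th was 1.02 and 1.24, so where the widening lay depended on the zero. A window was called when its difference reached 0.45 (0.25 of the control distance) and 3 SE. By this rule 2488 windows (22.0%) were later in KO cells and 919 windows (8.12%) were earlier. Just inside the threshold, a window of chromosome 6 starting at 23000001 had a difference of -0.4538, and just outside it, a window of chromosome 10 starting at 91800001 had -0.4532. Among earlier windows these neighbours were at 0.4542 (chromosome 14, 49000001) and 0.4532 (chromosome 1, 194200001).

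The balance between both directions rested on where 0 was placed. The median window differed by -0.15, and once differences were centred on that window, 1576 were later (13.9%) and 1580 earlier (14.0%). With both arrays scaled to the same spread, 13.5% were later and 6.36% earlier, and with scaling and centring together 7.86% were later and 10.9% earlier. Ranks within an array are free of centring and of scale. By rank, 781 windows moved down by 25 percentile points or more in KO cells and 696 moved up by as much, while 5772 windows (51.0%) stayed within 10 points. A set of 526 windows (4.65%) was later and 500 (4.42%) earlier under all 10 processing settings, namely the one used here, the scaled and centred ones, 2 background or intensity corrections, quantile normalization, a removed trend on timing, the deposited log ratio and a filter on dim probes. No window was later under one of these and earlier under another. All settings rest on the same 2 arrays, and the deposited log ratio nearly repeats the main run, so this says little about reproducibility. The filter on dim probes kept 10695 of 11314 windows, and windows lost to it could not enter the set. The set called under all settings was chosen as a summary after the data had been seen.

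**Figure D1:**
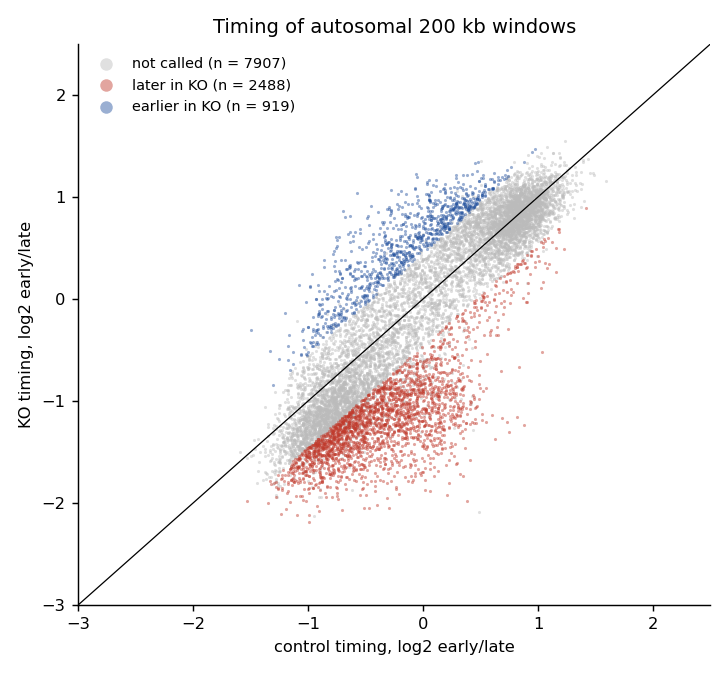
Timing of 11314 autosomal windows of 200 kb (points), with the control array on the x axis and the KO array on the y axis, both as log2 early over late signal relative to the autosomal probe median. The 2488 later windows lie below the diagonal, with a median of -0.37 in control and -1.23 in KO cells, and the 919 earlier windows lie above it, with medians of -0.16 and 0.58.

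Later windows lay in the late-replicating deciles, and those that were later under all settings lay towards the middle of S phase. Windows were ranked by mean timing on the other slide, which the comparison does not use, and cut into deciles. In the fifth decile from the latest, control timing was -0.25 and KO timing -0.72, with 42.8% of windows later and 7.69% earlier. In the fourth, control timing was -0.43 and KO timing -0.89, with 41.9% later and 6.18% earlier. The latest decile went from -0.88 to -1.22, with 32.5% later, but its mean rank within the array rose by 4.07 points, and its mean difference was 0.06 after scaling and centring, against -0.18 in the fifth decile. Mean rank changed by -7.15 points in the fifth decile and by -4.68 points in the fourth. Of the 526 windows later under all settings, 137 lay in the fourth and 170 in the fifth decile, against 19 in the latest and 5 in the earliest. Scaling, quantile normalization and trend removal lower differences most in the latest windows, so where these windows lay follows in part from the settings. After scaling and centring, later calls went from 32.5% to 2.92% in the latest decile and from 42.8% to 25.6% in the fifth.

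Earlier windows lay one step further towards early S phase. In the sixth decile 16.6% of windows were earlier and 16.3% later, and in the seventh 17.1% were earlier and 6.45% later. These deciles held 115 and 102 of the 500 windows that were earlier under all settings. In the earliest decile control timing was 0.90 and KO timing 0.91, and 1.59% of windows were later and 3.00% earlier. In that decile 72.5% of windows stayed within 10 rank points.

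**Figure D2:**
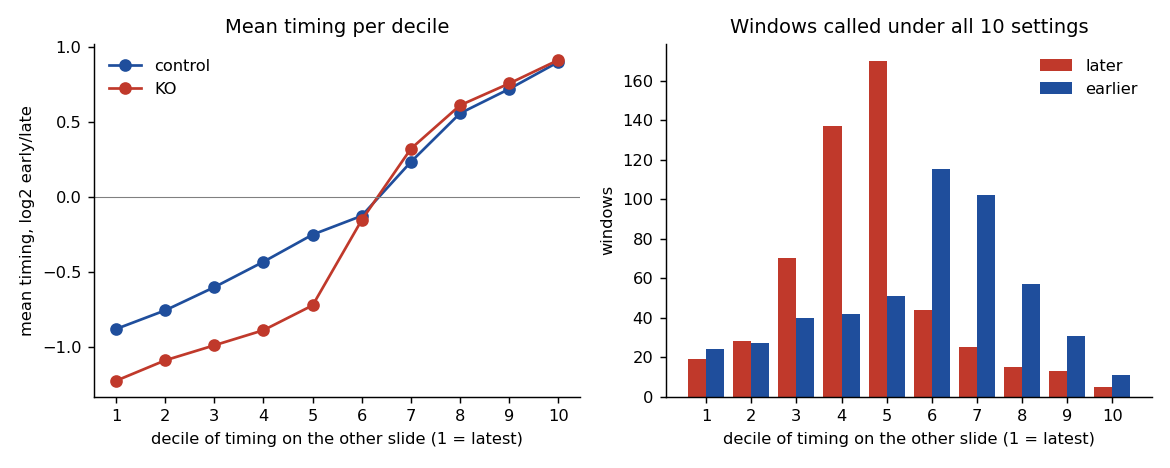
Left, mean timing (log2 early over late) of control and KO windows per decile of timing on the other slide, decile 1 being the latest; right, the number of windows called later (526 in all) or earlier (500 in all) under all 10 settings per decile. KO lies below control in deciles 1 to 5 and close to it from decile 6 on, and the later windows peak in decile 5 (170) while the earlier ones peak in decile 6 (115).

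Later windows joined into long stretches. When called windows less than 1 Mb apart were merged, 469 later regions resulted, and 232 of them held at least 3 called windows, with a median length of 2 Mb. The 28 regions over 5 Mb held 27.9% of later windows, and 145 regions were a single window. A later window was followed by another later window 62.3% of the time and by an earlier one 0.216% of the time. Differences between adjacent windows correlated with r = 0.77, which fell to r = 0.36 at a distance of 1 Mb and r = 0.066 at 5 Mb. Long regions also differed more: the median difference was -0.83 in regions over 5 Mb and -0.55 in those of 1 to 3 Mb.

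The 10 later regions with the largest mean difference, among those with at least 3 called windows, shared one profile. Control timing was intermediate in all of them, between -0.24 and 0.10, and KO timing was late, between -1.36 and -1.04. In rank, they went from the 43.8th to 57.8th percentile of the control array to between the 15th and the 27.8th percentile of the KO array. The regions were chosen for a large difference, so higher control and lower KO values follow in part from that choice. Non-induced timing was below control timing in all 10, and KO minus non-induced ran from -0.98 to -0.16. For KO minus control, odd probes alone gave differences of -1.33 to -0.99 and even probes -1.31 to -1.02. With arrays scaled and centred the differences were -0.91 to -0.64, and with normexp background correction -0.79 to -0.41. Under normexp the region of chromosome 2 starting at 39600001 read -0.41 in place of -1.13, and that of chromosome 8 starting at 99000001 read -0.47 in place of -1.10. The regions were poor in probes, with 33.0 to 48.3 per Mb in 8 of the 10.

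The largest difference was on chromosome 12 between 46400001 and 50200000, 3.8 Mb with 135 probes. The control array read 0.05 there, the KO array -1.27, the non-induced array -0.41 and the induced array -1.01, and KO minus control was -1.32 ± 0.07 (SE). Control windows spread from -1.09 to 0.88 and KO windows from -1.72 to -0.75. Control cells thus showed a rise in the middle of this region, flanked by late DNA with a mean of -0.93, where KO cells were late throughout.

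Chromosome 1 held a pair of such regions with less than 2 Mb between them. The first, 6.6 Mb from 100600001 on, read 0.10 for control, -1.17 for KO, -0.39 for non-induced and -0.93 for induced cells, and 26 of its 27 windows were called. The second, 10.4 Mb from 109000001 to 119400000 with 399 probes, read 0.01, -1.21, -0.40 and -0.99 in the same order, with 43 of 46 windows called. Its control windows ranged from -0.74 to 0.68 and its KO windows from -2.09 to -0.65. Of all 244 stretches of 10 Mb, the one from 110000001 to 120000000 on chromosome 1 had the lowest mean difference, -1.35, with 92.7% of windows later and 0 earlier.

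Chromosome 16 from 78800001 to 84400000 had control timing of -0.21 and KO timing of -1.36, and on the other slide it was -0.46 and -1.04. Chromosome 2 from 39600001 to 43800000 went from 0.09 to -1.04. On chromosome 8, a region of 5.0 Mb starting at 99000001 went from -0.07 to -1.18 and one of 4.0 Mb starting at 50600001 from -0.24 to -1.33. A region of chromosome 3, 6.6 Mb long and starting at 42400001, went from -0.19 to -1.23, and there the non-induced array, at -0.26, lay close to control. The shortest of the 10, 0.8 Mb on chromosome 15 from 71200001, read 0.01 in control and -1.14 in KO cells, but the non-induced array, at -0.98, was already late there. Median total signal (KO minus control) was -1.10 in that region, -0.76 in the one of chromosome 2, -0.70 in the chromosome 8 region at 99000001 and -0.52 in the one of chromosome 3, and its part in the ratios was not tested.

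**Figure D3:**
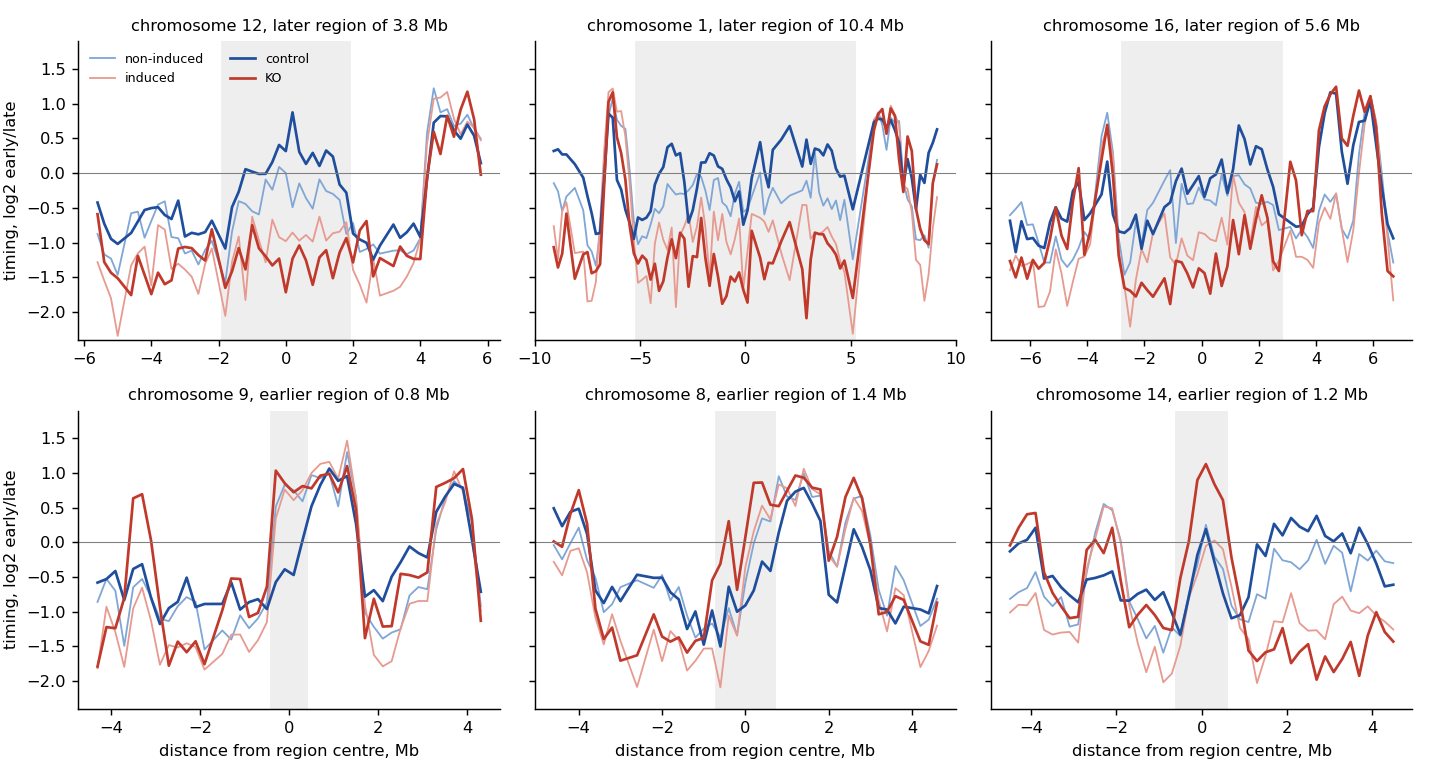
Timing (log2 early over late) of 200 kb windows on all 4 arrays around 3 later (top) and 3 earlier (bottom) regions, shaded, against distance from the region's centre in Mb. In the later regions the control line peaks at 0.68 to 0.88 in the interior while KO stays at or below -0.32; in the earlier ones KO peaks at 0.86 to 1.13 and control at -0.28 to 0.19.

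By contrast in length, the longest later region was on chromosome 14 from 88600001 to 99400000 (10.8 Mb). Control cells read -0.50 and KO cells -1.31 there, and the difference was -0.80 ± 0.03 (SE, 465 probes), so here DNA that was already late in control cells read later still in KO cells. A region of 10.0 Mb on chromosome 10 from 45800001 read -0.56 and -1.38. Among windows that were later under all settings, the longest cluster was again on chromosome 14, from 107200001 to 114800000, with 21 such windows among 36. Its control and KO means were 0.08 and -1.23, and mean rank fell from the 57.2nd to the 19.6th percentile. Next came chromosome 1 from 109600001 to 115200000 with 16, and chromosome 2 from 86000001 to 90200000 with 15, where control timing was -0.10 and KO timing -1.14.

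Inside long late domains, KO minus control was lower the farther a window lay from the domain edge. Late domains were taken from the mean of both arrays of the other slide, so their edges did not depend on control or KO values, and 97 of them were at least 5 Mb long. Within 0.4 Mb of their edges, control timing was -0.41 and KO timing -0.50. From 0.4 to 1 Mb inside, both were late, at -0.62 and -0.88. Further in, mean control values were -0.53 at 1 to 2 Mb, -0.48 at 2 to 3 Mb and -0.47 beyond 3 Mb. KO values kept falling over the same steps, to -0.94, -0.98 and -1.03. The difference therefore grew with depth, from -0.09 ± 0.46 (SD over 376 windows) at the edge to -0.56 ± 0.56 (SD over 1456 windows) beyond 3 Mb. The share of later windows rose from 18.1% to 50.5% on the way.

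The depth profile was also seen after scaling. After scaling and centring, the difference went from 0.15 at the edge to -0.20 beyond 3 Mb, and mean rank change from 6.33 to -7.73 points. Domain by domain, KO minus control was lower in the interior (2 Mb or more from an edge) than near the edge (under 1 Mb) in 77 of 97 domains, with a median of -0.35 between both zones. By rank it was lower in 74 of 97. Control timing alone was lower in the interior in 42 of 97 domains, and KO timing in 73. The mean difference between the zones was -0.34, and -0.19 with normexp background correction. Interior windows had fewer probes, a median of 9 against 13 near the edge. In windows with at least 10 probes the difference was -0.36 in the interior and -0.12 near the edge. Early domains of 5 Mb or more showed no such gradient: in 60 of them, KO minus control stayed between 0.015 and 0.048 at every depth.

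Induced minus non-induced timing, which shares no array with the comparison, was also lower in the interior than near the edge of these domains, at -0.49 and -0.29, and it was lower in 92 of 97 domains. On the induced array itself, however, values rose from -1.33 at 0.4 to 1 Mb to -1.14 beyond 3 Mb, as they did on the non-induced array (-0.93 and -0.64). Of the 4 arrays, the KO array alone showed a continued fall towards the middle of these domains. Since the non-induced and induced arrays placed the edges, only the contrast with the control array is free of that choice.

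**Figure D4:**
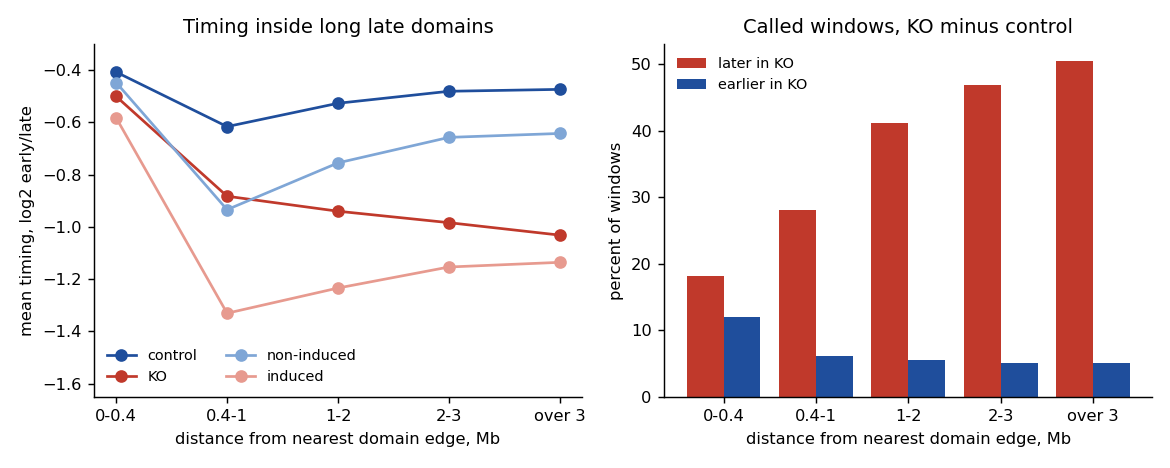
Windows inside 97 late domains of at least 5 Mb, defined on the other slide, by distance from the nearest domain edge in Mb. Left, mean timing (log2 early over late) on each array: control rises from -0.62 to -0.47 beyond 0.4 Mb while KO falls from -0.88 to -1.03. Right, percent of windows called later or earlier in KO: later calls go from 18.1% to 50.5%.

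Whole late domains moved to different degrees. Of the same 97 domains, 90 had a mean difference below 0 and 42 a mean beyond the call threshold, and the domain means ran from -1.22 to 0.15 with a median of -0.42. The lowest was chromosome 1 from 108600001 to 120400000, at -0.03 in control and -1.25 in KO cells, followed by chromosome 8 from 98400001 to 106600000, at -0.17 and -1.16. The highest was chromosome 2 from 105000001 to 112000000, which went from -0.64 in control to -0.49 in KO cells. The median difference was less negative in shorter late domains: -0.14 in 89 domains of up to 1 Mb, -0.22 in 131 of 1 to 3 Mb and -0.35 in 146 longer ones. With arrays scaled and centred the order by length was kept, at 0.13, 0.088 and -0.016. The shorter domains then lay above 0 and the longer ones near it. Without these steps, 129 of the 146 longer ones had a mean difference below 0, so such counts depended on the zero and the scale. The domain medians on the control array did not follow the order by length, at -0.44, -0.58 and -0.52.

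In later windows early signal differed more than late signal in 83.6%, against 70.2% of all windows. Early signal relative to the array's autosomal median was lower on the KO array in 94.9% of later windows and 49.9% of all windows. It differed by -0.85 on average in later windows. Late signal there differed by -0.06 on average and was higher in 43.0%, against 50.4% of all windows. Later windows were chosen for a lower ratio of early to late signal, so lower early signal follows in part from that choice. In the windows later under all settings, early signal differed by -0.89 and late signal by 0.22. Total signal fell in later windows, by a median of -0.42, with 11 probes per window in the median. Across all windows, both channels moved with timing: in the latest decile early and late signal differed by -0.61 and -0.32, and in the earliest by 0.32 and 0.26. Late-replicating windows were therefore dimmer on the KO array in the late channel too, and the part of this in the ratios was not tested. Among the 10 largest later regions, late signal rose most on chromosome 12 at 46400001, by 0.56, and on both chromosome 1 regions, by 0.50 and 0.53, and total signal there differed by medians of 0.0081, -0.15 and -0.03.

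By the call rule, earlier regions were shorter. There were 359 of them, 127 with at least 3 called windows and a median length of 1.20 Mb in those, and 1 over 5 Mb. Over all regions, the median was 0.4 Mb for earlier and 0.8 Mb for later ones. Windows called under all settings merged into 233 earlier regions (median 0.4 Mb) and 194 later ones (median 0.3 Mb). The region with the most such windows spanned 2 Mb among earlier and 7.6 Mb among later ones. In the windows called earlier, median timing went from -0.16 in control to 0.58 in KO cells. In these windows, chosen for a higher ratio, early signal was higher in most, by 0.53 on average, and late signal lower, by -0.21. In the windows earlier by 1.0 or more (86), these were 0.71 and -0.50. Of the 127 regions, 54 had early DNA on one side on the control array and late DNA on the other, 48 had late DNA on both sides and 23 early DNA on both sides. Of the 232 later regions with at least 3 called windows, these counts were 76, 116 and 29.

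Among earlier regions, chromosome 9 between 95200001 and 96000000 had the highest mean difference. The control array read -0.35, the KO array 0.84, the non-induced array 0.69 and the induced array 0.63, and KO minus control was 1.19 ± 0.08 (SE over 68 probes). Here the control array was the one that stood apart, and the stretch read early on the other arrays. Chromosome 8 from 35400001 to 36600000 was alike, at 0.06 in control against 1.06, 0.76 and 1.02.

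In others the KO array stood apart. On chromosome 14 from 105400001 to 106600000 the control array read -0.58 and the KO array 0.41, with -0.51 and -0.53 on the other slide, and the difference was 0.99 ± 0.08 (SE over 67 probes). All its 6 windows were called under all settings, and the KO windows reached 1.13 where the highest control window was 0.19. The stretch of chromosome 8 from 7800001 to 9200000 read -0.56 in control and 0.40 in KO cells, with -0.88 and -1.02 on the other slide. Chromosome 2 from 172000001 to 173000000 read -0.40 and 0.56, with -0.69 and -0.73. Chromosome 9 from 92000001 to 92600000 read -0.50 and 0.45, with -0.64 and -0.89. Across the 10 largest earlier regions, scaled and centred differences were 0.90 to 1.15.

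The longest earlier region, 5.2 Mb on chromosome 19 from 40600001, rose from 0.26 to 0.60, and 11 of its 26 windows were called. On chromosome 9 a region of 4.4 Mb from 118400001 went from 0.11 in control to 0.70 in KO cells, near the 0.62 and 0.81 of the other slide. The largest cluster of windows earlier under all settings lay on chromosome 14 from 28400001 to 30400000, where all 10 windows were such. They averaged -0.66 in control and 0.02 in KO cells, with -0.86 and -0.98 on the other slide.

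The layout of domains was largely kept. After a running mean over 5 windows, sign changes cut the control array into 865 domains and the KO array into 839, with median lengths of 1.6 Mb for early and 2 Mb for late domains on both. Of 827 control boundaries, 599 (72.4%) had a KO boundary of the same direction within 400 kb, against 563 (68.1%) for the non-induced and 548 (66.3%) for the induced array. Matched the other way, 74.8% of 801 KO boundaries had a control boundary that near. For the non-induced array it was 80.8% of 698, and for the induced array 81.2% of 676. Which array lay closest to control thus depended on the direction of matching. The count of domains depended on the smoothing, with 1559 and 1458 without it. Timing across 685 boundaries of the other slide went from -0.61 at 0.5 Mb on the late side to 0.57 at 0.5 Mb on the early side in control cells, and from -0.80 to 0.62 in KO cells. Of the later windows 528 crossed from 0 or above to below 0, and of the earlier ones 438 crossed the other way.

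Chromosomes differed in how much of them moved and in which direction. Chromosomes 6, 16, 1 and 14 had the highest shares of later windows, at 31.8%, 30.4%, 30.3% and 28.4%. Chromosomes 13 and 19 had the lowest, at 11.2% and 10.1%, and by the call rule these 2 alone had more earlier than later windows. Under all settings, earlier windows outnumbered later ones on 9 of 19 chromosomes, namely 2, 5, 8, 9, 10, 11, 13, 18 and 19. Of the windows that held under all settings, chromosome 1 had 74 later and 53 earlier, chromosome 6 had 64 and 27, chromosome 15 had 24 and 4, chromosome 8 had 29 and 41, and chromosome 10 had 26 and 40. Chromosome 13 had 7 later and 45 earlier, and chromosome 19 had 2 and 25. Mean rank moved by -4.03 points on chromosome 16 and by -3.13 on chromosome 1, and by 6.34 on chromosome 13 and 4.15 on chromosome 19. Control and KO timing were least alike on chromosome 14 (r = 0.73 over 546 windows) and most alike on chromosome 7 (r = 0.90 over 631 windows), where 18.1% of windows were later and 5.07% earlier. Median total signal differed by 0.26 on chromosomes 1 and 16, 0.023 on chromosome 13 and -0.018 on chromosome 19, so chromosomes with more later windows included ones with higher total signal on the KO array, and on chromosome 14 it differed by -0.11.

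**Figure D5:**
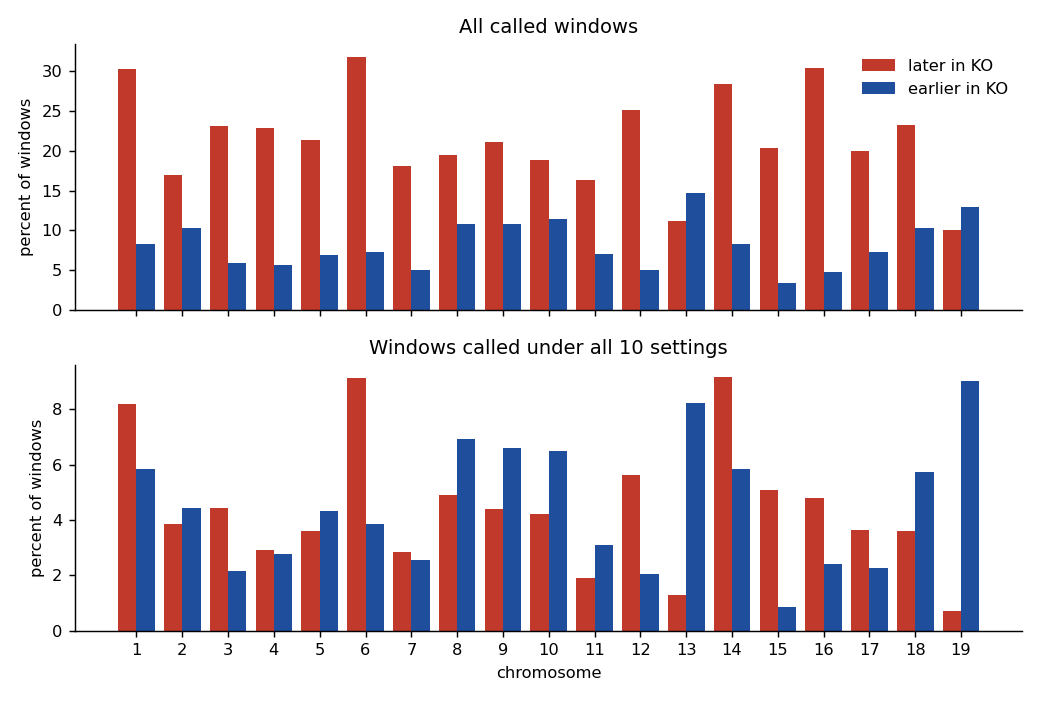
Percent of autosomal windows called later (red) or earlier (blue) in KO than in control cells, per chromosome, by the call rule (top) and under all 10 settings (bottom). Later windows lead on all chromosomes but 13 and 19 in the top panel; in the bottom panel chromosomes 1, 6 and 14 have the highest shares of later windows and chromosomes 13 and 19 the lowest, and earlier windows lead on 9 chromosomes (2, 5, 8, 9, 10, 11, 13, 18 and 19).

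Values at the ends of chromosomes were compared with the rest. In the first 5 Mb with windows, next to the centromere in the mouse, mean timing went from -0.19 in control to -0.37 in KO cells, a mean difference of -0.19, as between the ends. In the last 5 Mb it went from 0.090 to 0.037, and 15.9% of windows were later and 13.3% earlier, against 22.3% and 7.93% between the ends. Windows with few probes held more of the later calls: 35.1% of windows with 5 to 9 probes were later, with an SE of 0.17 in the median, against 14.5% of windows with 20 or more, with an SE of 0.098. The former were also later replicating on the other slide, at -0.73 against 0.19.

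The other slide gave values for the same windows. By the same rule, induced minus non-induced timing called 11.4% of windows later and 0.477% earlier. In the windows later in KO than in control cells, induced timing was below non-induced timing in 92.1%, against 62.1% of all windows and 53.6% of windows not called, with a median of -0.48 against -0.11 over all windows. Those later windows were also later replicating on the other slide, with a median of -0.88 against -0.34 over all windows. The induced array had the wider 10th-to-90th percentile distance, 2.70 against 2.08 on the non-induced array. Windows matched for timing were not compared, and the part of this spread in the values was not tested. The 726 windows later in both made up 29.2% of the KO list and 56.2% of the induced list. The earlier lists shared 2 windows, 0.218% of the KO list, and in windows earlier in KO cells the median of induced minus non-induced was -0.02. Non-induced minus control, which shares the control array with the comparison and lies across slides, called 10.5% of windows later and 8.58% earlier. In windows later in KO cells its median was -0.26, and in those earlier in KO cells 0.24. The non-induced array, a reference like the control array, thus lay between control and KO in both classes in the median, but the windows were chosen on values of the control array. A shift in the mean cannot be told apart from a shift in some of the cells only, since each fraction pooled its sorted cells.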

How the data were processed

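Early (Cy3) and late (Cy5) DNA of each culture was hybridised to 1 array, per the labels' protocols, with no dye swap. The processed signal is a deposited intensity, background-subtracted, detrended and scaled by 1 linear dye factor per channel, per the file headers (Agilent Feature Extraction 11.5.1.1; the submitters' processing notes name version 9.1). The deposited LogRatio is log10 of late over early signal, and the deposited value table held log10 values within 1e-06 of it in all 174305 genomic spots. Quality flags are deposited with values of 0 or 1.

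Timing was log2 of early over late processed intensity. Spots with non-uniformity or population outlier flags on any array were dropped, repeated spots were averaged per probe, autosomal medians were set to 0 on every array, and 160967 autosomal probes were averaged in 200 kb windows with at least 5 probes. No loess or quantile step was applied. Domains are runs of one sign after a running mean over 5 windows, and boundaries were matched within 400 kb. Called windows less than 1 Mb apart were merged. The 10 regions per direction with the largest mean difference among those of 3 or more called windows were named; other regions were named by length, by shared calls or as extremes of domains. Members, lists and rules were chosen with earlier results of these data known; ranks, shared calls and depth inside domains were added after seeing the data. The call step was tested on simulated data. The genes named in 29 lists, and the targeted gene, were not analysed here, since no annotation of mm9 was at hand. Tools were Python 3.11.15, numpy 2.4.6, pandas 2.3.3, matplotlib 3.10.9, R 4.3.3 and limma 3.58.1 (normexp and loess alternatives only).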

Additional observations from a re-analysis of the deposited data

Results flagged for a closer look

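Chromosome Y probes lie outside the autosomal comparison. Of 122 such probes, 106 cleared background in both channels in the KO hybridisation, against 50 on the control, 53 on the non-induced and 41 on the induced array. The KO culture therefore differed from the other cultures in chromosome Y signal, and its part in the autosomal values was not tested.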

How the results depend on the processing

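The share of later windows (22.0%) was 14.0% with normexp, 13.5% with arrays scaled to the same spread, 9.38% with quantile normalization, 13.9% with differences centred on the median window, 7.86% with scaling and centring together, 9.51% with the trend on timing removed, 5.78% at a threshold of 1.0, and 13.7% over odd and 14.0% over even probes. The share of earlier windows (8.12%) was 14.0% centred on the median window, 13.4% with the trend removed and 0.76% at a threshold of 1.0. The median window difference (-0.15) was -0.063 with normexp, -0.017 with quantile normalization, -0.013 with the trend removed, -0.080 in windows of 100 kb, -0.076 with at least 10 probes, and -0.072 over odd and -0.081 over even probes. The ratio of spreads (1.28) was 1.16 with normexp, 1.00 with quantile normalization, which forces it, and 1.12 against the non-induced array. Interior minus edge of long late domains (-0.34) was -0.19 with normexp and stayed below 0 under all 14 alternatives run. Not all of these could move it: centring shifts both zones alike. The deposited log ratio, kept outlier spots and spots not averaged per probe are close to the main run and gave -0.34 again. The causes were not tested. None of 200 values of the 20 named regions under alternatives changed sign, and 83 moved beyond the 95% interval over probes. These regions were chosen for large differences and the alternatives use the same arrays, so a change of sign was unlikely from the start. Normexp was planned on mean signals and run on raw median signals, which the files hold; gene lists were not run. No paired analysis was possible because each group had 1 array. Windows with 5 to 9 probes had the widest errors (median SE 0.17), and with only probes well above background 20.5% of windows were later.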
